A study of Mus musculus with 15 samples.

Results

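The genes described here are 9 myeloid C-type lectin receptors encoded on mouse chromosome 6: *Clec7a*, *Clec4n*, *Clec4d*, *Clec4e*, *Clec4b1*, *Clec4a1*, *Clec4a2*, *Clec4a3*, and *Clec12a*. They were chosen as a list of gene symbols and matched through Ensembl identifiers to the table of counts. All 9 were among the 19456 genes of that table, and all 9 were among the 15802 genes that passed the filter on low counts. RNA was sequenced from 15 libraries of cells sorted from adult male wild-type C57BL/6 mice, for which the labels name no treatment. Ly6Chi monocytes came from peripheral blood (3 libraries). The other 12 libraries came from small intestinal macrophages (CD64+MHCII+Ly6C-, with lymphocytes and granulocytes gated out by Siglec F, TCRβ, B220, and Ly6G), divided by surface Tim-4 and CD4 into 3 subsets of 4 libraries each: Tim-4-CD4- macrophages (DN, negative for both), Tim-4-CD4+ macrophages (SP, positive for CD4), and Tim-4+CD4+ macrophages (DP, positive for both). Each library pooled cells from 3 mice, apart from monocyte replicate 2, which pooled 4. Intestinal cells were released by enzymatic digestion before sorting, and blood cells were not. The libraries held 39388763 to 151510641 counted reads (median 63249039), and since each is a pool, p-values measure the spread between pooled libraries and not between single mice. The paper describes independent sorts from pooled mice for the macrophages, as many as the libraries of each subset. Macrophage subsets may therefore share pools of mice, but which libraries belong together is not stated. The tests treat the libraries as independent, apart from those with a replicate block, which follows the replicate numbers. Calls and non-calls between macrophage subsets thus rest on fits that may miss such matching.

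C-type lectin receptors of myeloid cells bind sugars and lipids of fungi, bacteria, and damaged host cells. Activating members signal through an immunoreceptor tyrosine-based activation motif, either in their own tail (Dectin-1, encoded by *Clec7a*) or in the adaptor FcRγ (Dectin-2, encoded by *Clec4n*, Mincle, encoded by *Clec4e*, MCL, encoded by *Clec4d*, and DCAR, encoded by *Clec4b1*), to the kinase Syk and the scaffold Card9. Inhibitory members, such as DCIR (*Clec4a2*) and MICL (*Clec12a*), carry a motif that recruits the phosphatases SHP-1 and SHP-2, whereas *Clec4a1* and *Clec4a3* encode close relatives of DCIR without that motif. In the gut, Dectin-1 in particular is known for the recognition of fungi.

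The 9 genes lay in a pair of blocks on chromosome 6 of GRCm38 (GENCODE M21 positions). The first block held 7 genes from 122921848 to 123289870, a span of 368 kb, in the order *Clec4a1*, *Clec4a3*, *Clec4b1*, *Clec4a2*, *Clec4n*, *Clec4d*, and *Clec4e*. The second block held *Clec12a* and *Clec7a* from 129342691 to 129472779, a span of 130.1 kb. *Clec4e* and *Clec7a* were on the minus strand and the other 7 on the plus strand. *Clec7a* is listed as a polymorphic pseudogene in that annotation. Of all stretches of 65 bases (1 read) in their transcripts, 2.94% of those of *Clec4b1* and 4.58% of those of *Clec4a2* occurred in transcripts of another gene, and the other 7 genes had none. *Clec4a2* also overlapped a pseudogene on its own strand, *Gm44132*, so that its counts and those of *Clec4b1* are less certain than the others.

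*Clec4d* (123262111 to 123275265, plus strand) and *Clec4e* (123281789 to 123289870, minus strand) lie with their 3′ ends facing each other across 6.52 kb, and MCL and Mincle form a receptor complex. The 250 bases upstream of their RefSeq start sites in GRCm38.p6, chr6:123261857-123262106 on the plus strand and chr6:123289872-123290121 on the minus strand, are shown because these neighbors took separate courses between the macrophage subsets. Capitals mark matches, on either strand, to the PU.1 core GAGGAAG or to the C/EBP sequence TTGCNNA, factors that are central to myeloid gene expression.
Clec4d: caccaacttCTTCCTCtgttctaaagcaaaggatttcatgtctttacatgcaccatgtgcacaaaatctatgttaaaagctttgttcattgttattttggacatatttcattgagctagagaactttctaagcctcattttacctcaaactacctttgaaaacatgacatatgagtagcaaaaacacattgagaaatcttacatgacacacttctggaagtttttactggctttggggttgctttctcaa
Clec4e: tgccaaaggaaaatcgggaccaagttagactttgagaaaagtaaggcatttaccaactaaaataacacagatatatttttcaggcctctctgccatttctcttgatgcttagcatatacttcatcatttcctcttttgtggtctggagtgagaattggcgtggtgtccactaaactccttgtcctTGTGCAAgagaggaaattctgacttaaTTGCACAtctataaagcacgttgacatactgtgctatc
The *Clec4d* window held 1 PU.1 match, with 234 bases between it and the start, and no C/EBP match. The *Clec4e* window held 2 C/EBP matches, with 58 and 31 bases between them and the start, and no PU.1 match. Neither held the AP-1 sequence TGANTCA. Among 32851 RefSeq promoters, 32.8% held the C/EBP sequence, 10.6% the PU.1 core, and 6.75% the AP-1 sequence in the same 250 bases. RefSeq windows were at hand for 8 of the 9 genes (10 windows), with none for *Clec4n*. *Clec12a* also had 2 C/EBP matches, which overlap, beside 1 PU.1 and 1 AP-1 match, but its window lies within an exon of a longer GENCODE transcript. *Clec4a1* held 1 PU.1 and 1 C/EBP match, *Clec4b1* 1 C/EBP match, and *Clec4a3* 1 C/EBP match in 1 of its 2 windows, and *Clec4a2* and *Clec7a* held none of the 3 sequences. The *Clec4a2* window (123122440 to 123122689) lies inside the GENCODE span of that gene (123106428 to 123143999), past its first start. A match is a run of letters and does not show binding.

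Against monocytes, 9 of 9 genes were called at an adjusted p under 0.05 by edgeR in each macrophage subset, beside 65.4% of all genes tested for DN, 69.8% for SP, and 70.9% for DP macrophages (37.3% higher and 28.1% lower, 39.1% and 30.7%, and 39.5% and 31.3%). These 3 comparisons share the monocyte libraries. Within each of them 4 genes were higher in macrophages (*Clec7a*, *Clec4n*, *Clec4a2*, and *Clec4b1*) and 5 were lower (*Clec4d*, *Clec4e*, *Clec4a1*, *Clec4a3*, and *Clec12a*). At a change of at least 2-fold as well, 7, 7, and 5 of the 9 were called, beside 38.2%, 42.3%, and 43.3% of all genes. In DP macrophages *Clec7a* fell just short of this threshold, at 1.999-fold. The median log2 fold change of the 9 genes was -0.50, -0.58, and -0.71 in the 3 subsets, in the order above, beside medians of 0.08, 0.11, and 0.10 over all genes. So many genes differed between blood and gut that the count alone says little of the lectins, and the sizes below carry the description. In these bulk samples, fewer cells with a transcript and less of it per cell cannot be told apart.

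The gut and blood libraries differed in handling as well as in tissue. Of 16 immediate early and stress genes known to respond to tissue dissociation, 16 were higher than in monocytes in each macrophage subset (median log2 fold changes 5.24, 5.15, and 4.98). A tissue effect and a digestion effect on the lectins cannot be told apart by the comparison with blood. Between macrophage subsets, which were digested in the same way, 0 of these 16 genes were higher and 4, 0, and 7 were lower in the SP against the DN, the DP against the SP, and the DP against the DN comparison, beside 5.53%, 1.34%, and 11.9% of all genes.

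**Figure D1:**
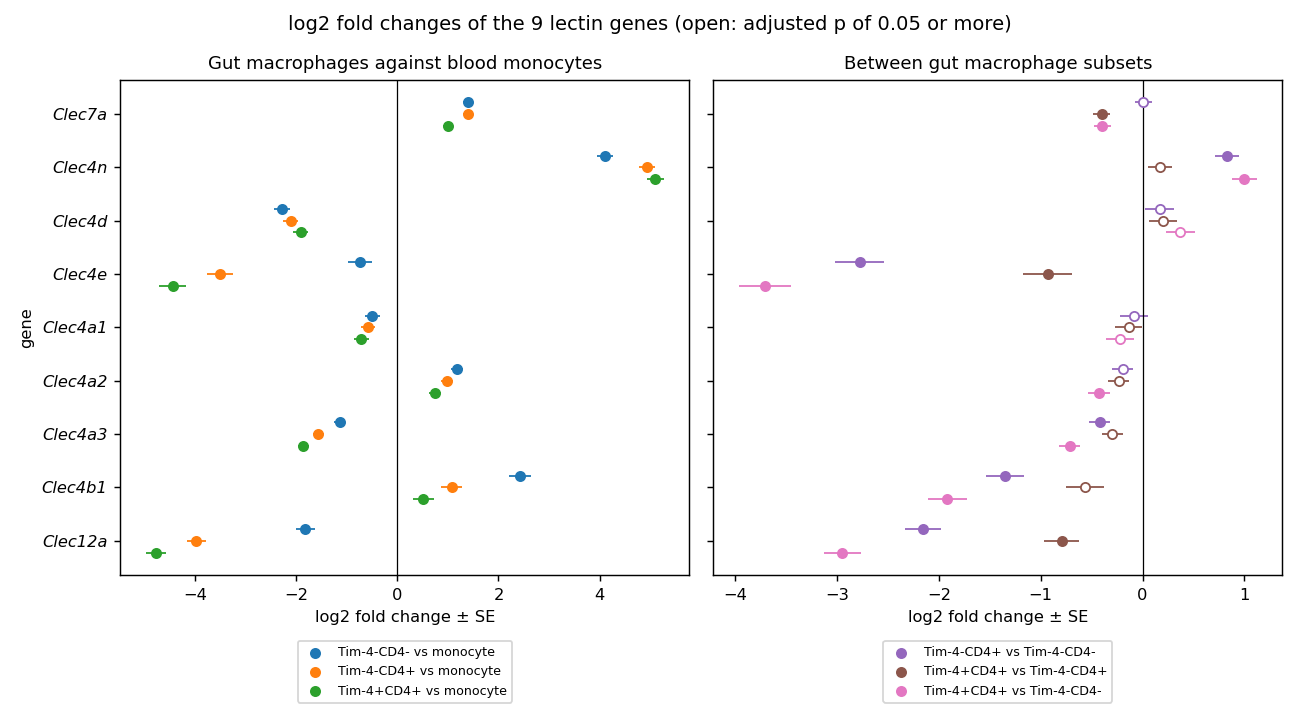
Log2 fold changes (horizontal axis, ± SE from edgeR) of the 9 lectin genes for each macrophage subset against monocytes (left, 3 against 4 libraries) and between macrophage subsets (right, 4 against 4). Filled points have an adjusted p under 0.05 and open points do not. *Clec4n* lies farthest right at 5.10 and *Clec12a* farthest left at -4.77 on the left panel, and *Clec4e* farthest left at -3.71 on the right.

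Between macrophage subsets far fewer genes differed overall. From DN to SP macrophages, 5 of the 9 lectin genes were called, beside 10.1% of all genes (4.52% higher and 5.53% lower): *Clec4n* was higher, and *Clec4a3*, *Clec4b1*, *Clec4e*, and *Clec12a* were lower. From SP to DP macrophages, 3 of 9 were called, beside 3.41% of all genes (2.07% higher and 1.34% lower), and *Clec4e*, *Clec7a*, and *Clec12a* were all lower. Between the DN and DP subsets, 7 of 9 were called, beside 23.1% of all genes (11.3% higher and 11.9% lower), with *Clec4n* higher and *Clec4a2*, *Clec4a3*, *Clec4b1*, *Clec4e*, *Clec7a*, and *Clec12a* lower in DP macrophages. At a change of at least 2-fold as well, the counts were 3 (beside 3.06% of all genes), 0 (1.75%), and 3 (8.45%). The 3 genes of the first comparison at this threshold were *Clec4b1*, *Clec4e*, and *Clec12a*, as were those of the third. In the third, *Clec4n* fell just short, at 1.999-fold.

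Expression is given below as CPM, each gene's count relative to the TMM-scaled total of its library. Among the activating receptors, *Clec4n* (Dectin-2, a receptor for mannans) had the largest rise over monocytes of the 9 genes in each of the 3 comparisons. Monocytes held 12.5, 7.15, and 8.58 CPM of *Clec4n* (replicates 1 to 3). DN macrophages held 158, 163, 159, and 169 CPM, SP macrophages 278, 300.0, 279, and 295 CPM, and DP macrophages 334, 328, 309.5, and 326 CPM. No library of one population overlapped with one of another. The log2 fold change against monocytes was 4.10 (SE 0.15, edgeR adjusted p = 6.1e-13) in DN, 4.93 (SE 0.16, adjusted p = 8.6e-14) in SP, and 5.10 (SE 0.16, adjusted p = 5.4e-14) in DP macrophages, or 17.2-, 30.5-, and 34.4-fold. Within the gut, *Clec4n* was 0.83 higher on the log2 scale in the SP than in the DN subset (SE 0.12, edgeR adjusted p = 0.00028). The further step to DP macrophages was 0.17 (SE 0.12, edgeR adjusted p = 0.54), so that these neighbors in the order of levels were not distinguished although their libraries did not overlap.

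*Clec7a* (Dectin-1, the receptor for β-glucan of fungal walls) was also higher in the gut. Its level was 423, 417, and 479 CPM in monocytes, and 1226, 1118, 1096, and 1183 CPM in DN macrophages. In SP macrophages it was 1119, 1204, 1027, and 1297 CPM, and in DP macrophages 917, 896, 837, and 864 CPM. The Tim-4- subsets overlapped with each other, and both lay above all DP libraries, which in turn lay above all monocyte libraries. The rise over monocytes was 1.40 on the log2 scale in both Tim-4- subsets (SE 0.09, edgeR adjusted p = 1.2e-09 for DN and 9.5e-10 for SP) and 1.00 (SE 0.09, adjusted p = 5.7e-08) in DP macrophages. *Clec7a* was lower in DP than in SP macrophages by 1.32-fold (log2 fold change -0.40, SE 0.08, edgeR adjusted p = 0.010), whereas the Tim-4- subsets differed by 0.01 (SE 0.08, adjusted p = 0.98). Without SP replicate 4, the first of these was no longer called (-0.34, adjusted p = 0.0554). Thus Dectin-1 and Dectin-2 transcripts, both higher in gut macrophages than in monocytes, took opposite courses from the DN to the DP subset (-0.40 and 1.00 on the log2 scale, edgeR adjusted p = 0.0024 and 1.4e-05).

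**Figure D2:**
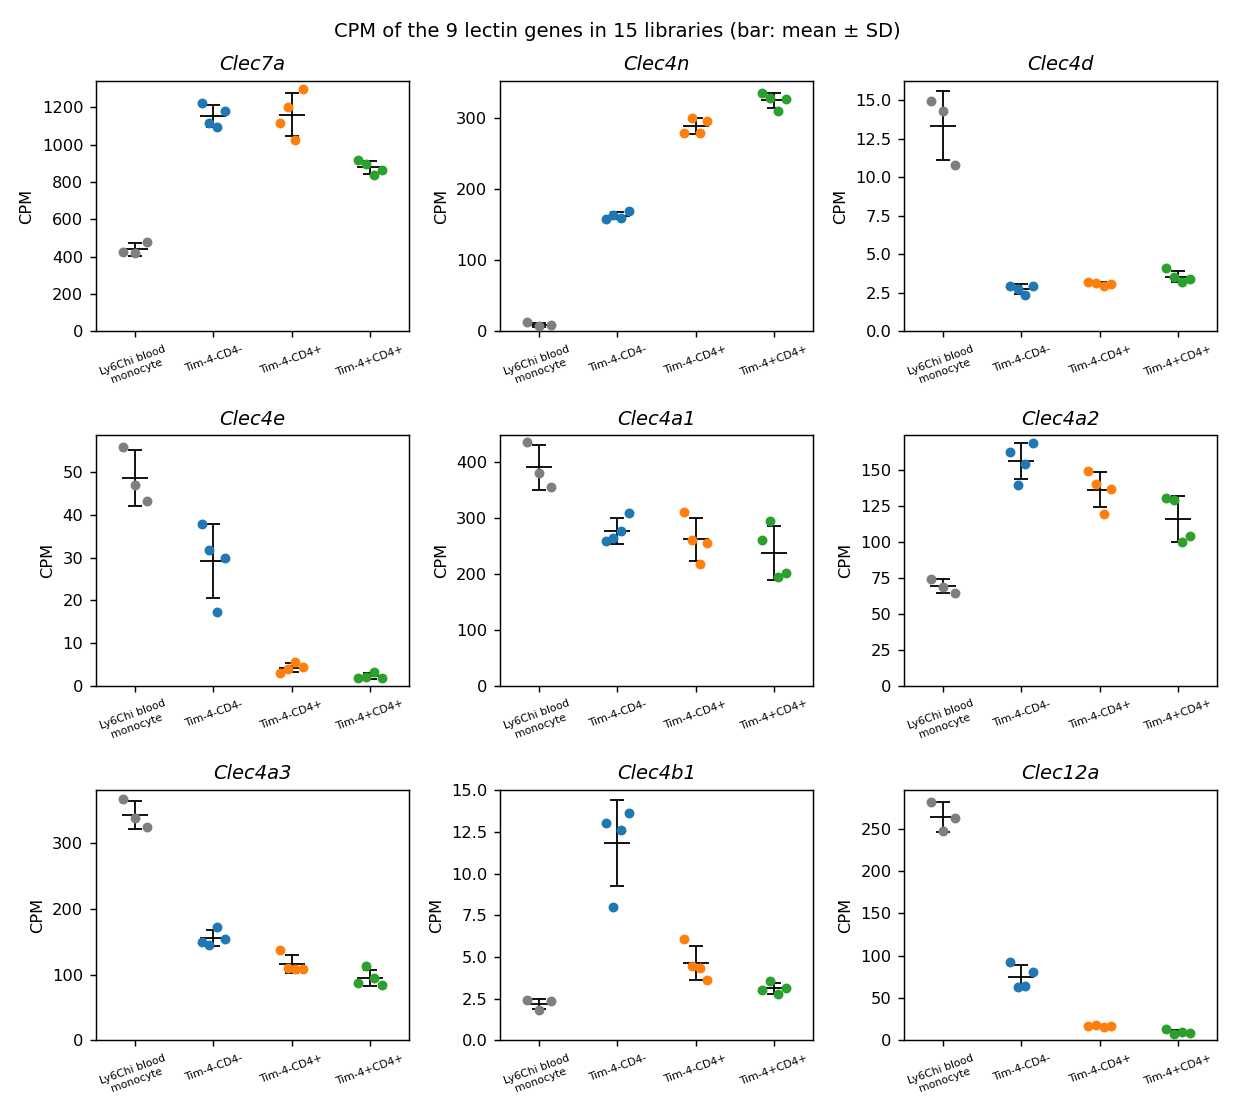
CPM (vertical axis, starting at 0, a separate scale for each gene) of the 9 lectin genes in the 4 populations. Each point is 1 library, the long bar is the mean, and the error bar is the SD (n = 3 monocyte and 4 libraries of each macrophage subset). *Clec4n* climbs from 9.41 CPM in monocytes to 324 CPM in Tim-4+CD4+ macrophages, and *Clec12a* descends from 264 to 9.65 CPM.

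*Clec4e* (Mincle, a receptor for mycobacterial cord factor and for a nuclear protein released by dying cells) went the other way. Monocytes held 55.9, 47.1, and 43.2 CPM, and DN macrophages 37.9, 31.9, 17.4, and 30.05 CPM. SP macrophages held 3.04, 3.94, 5.66, and 4.34 CPM, and DP macrophages 1.86, 2.15, 3.20, and 1.79 CPM. The main break lay between the DN and the CD4+ macrophages, whose libraries did not overlap: the SP subset was lower by 6.86-fold (log2 fold change -2.78, SE 0.24, edgeR adjusted p = 1.6e-06) and the DP subset by 13.1-fold (-3.71, SE 0.25, adjusted p = 2.1e-08). In contrast, the DN subset was 1.66-fold below monocytes (-0.73, SE 0.24, edgeR adjusted p = 0.012). The latter call was lost without monocyte replicate 1 (-0.60, adjusted p = 0.0681). Between the CD4+ subsets the log2 fold change was -0.93 (SE 0.24, edgeR adjusted p = 0.0425), but their libraries overlapped, and the call was lost in 13 of the 22 alternatives, 10 of which left out a single library (monocyte replicate 2 or 3, DN replicate 2 or 4, SP replicate 2, 3, or 4, or DP replicate 1, 2, or 4, with edgeR adjusted p from 0.0506 to 0.135 and log2 fold changes of -0.75 to -0.96).

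DN replicate 3 had the least *Clec4e* of its subset (17.4 CPM, against 30.05 to 37.9 in the other libraries) and also the most *Cd4* (39.2 CPM, against 14.5 to 20.7). Its *Clec4e* was still above the highest CD4+ macrophage library, at 5.66 CPM. The same library had the most of 6 of the 9 markers of conventional dendritic cells among the DN libraries, among them *Flt3* (17.9 CPM, against 4.41 to 7.57) and *Itgae* (24.7 CPM, against 3.21 to 5.43). It also had the most of 2 of 7 epithelial markers, *Epcam* (10.8 CPM, against 1.42 to 2.51) and *Cdh1* (10.7 CPM, against 1.28 to 1.45). DN replicate 2 had the most of the other 5. Replicate 3 had the most of 4 of 5 B cell, 4 of 6 plasmacytoid dendritic cell, and 3 of 4 eosinophil markers as well. The part of CD4+ macrophages or of any of these other cells in the *Clec4e* of DN replicate 3 was not tested. Without this library the mean of the DN subset was 33.3 CPM, and the log2 fold changes of *Clec4e* were -0.53 for DN macrophages against monocytes, -2.96 for SP against DN, and -3.89 for DP against DN (edgeR adjusted p = 0.037, 6.9e-07, and 8.0e-09).

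*Clec4d* (MCL, which brings Mincle to the cell surface) stood at 14.95, 14.3, and 10.8 CPM in monocytes. It was at 2.92, 2.78, 2.33, and 2.98 CPM in DN macrophages, 3.19, 3.16, 2.94, and 3.10 CPM in SP macrophages, and 4.10, 3.52, 3.20, and 3.42 CPM in DP macrophages. These macrophage values rest on 108 to 459 reads per library. Every macrophage library was below every monocyte library, by 4.86-, 4.32-, and 3.75-fold on average (edgeR adjusted p = 1.0e-09, 2.0e-09, and 6.0e-09). Between macrophage subsets none of the differences passed (log2 fold changes 0.17, 0.20, and 0.37, SE 0.14 each). The largest of these, from DN to DP macrophages, had no overlap between libraries and an adjusted p of 0.069 by edgeR, and it was called by DESeq2 (0.40, adjusted p = 0.0336) and with upper-quartile scaling (0.43, edgeR adjusted p = 0.0469).

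The neighbors *Clec4d* and *Clec4e* therefore had separate courses, which the ratio of their counts in the same library shows without any scaling. *Clec4e* was counted 3.67 ± 0.36 times as often as *Clec4d* in monocytes (SD, n = 3) and 10.5 ± 2.35 times in DN macrophages (SD, n = 4). The ratio was 1.38 ± 0.41 in SP and 0.647 ± 0.244 in DP macrophages (SD, n = 4 each). By an exact permutation test of the mean log2 ratio (two-sided, 6 comparisons), 5 comparisons reached an adjusted p of 0.034 from the smallest p that these numbers of libraries allow, 0.029. The comparison of SP with DP macrophages did not (difference -1.12 on the log2 scale, exact p = 0.057, adjusted p = 0.057), and their ranges, 0.954 to 1.93 and 0.454 to 1.00, overlapped. This test treated the libraries as independent. It was not among the planned tests and uses the same counts as the fold changes above, so its p-values are not separate support for them. With subset means removed, SP replicates 1 to 4 correlated most with DP replicates 2, 4, 3, and 1 (r = 0.17, 0.14, 0.13, and 0.07). The ratios in these pairs were 0.954 and 0.611, 1.25 and 0.524, 1.93 and 1.00, and 1.40 and 0.454. A test matched in this way was not run. These ratios are of counts and not per length, so they compare populations and not the genes with each other.

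**Figure D3:**
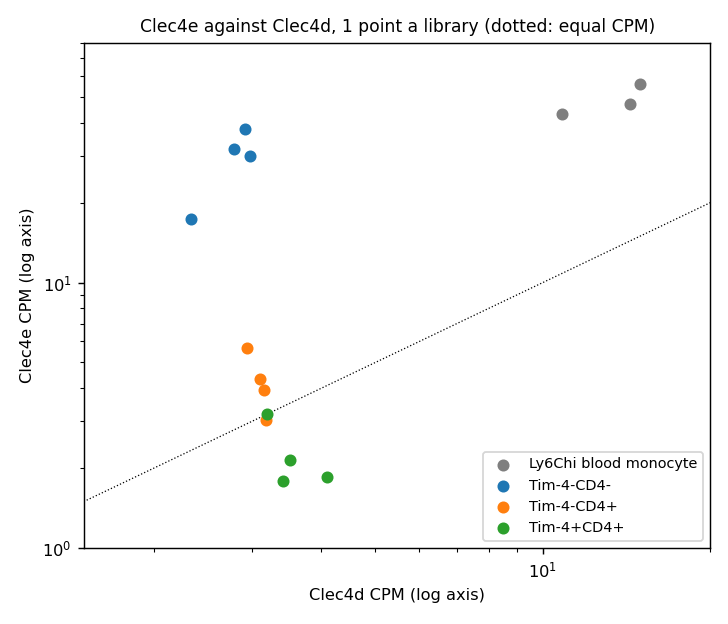
CPM of *Clec4e* (vertical, log axis) against CPM of *Clec4d* (horizontal, log axis), 1 point for each of the 15 libraries, with a dotted line at equal CPM. Macrophages of all 3 subsets lie at similar *Clec4d* (2.33 to 4.10 CPM), and *Clec4e* separates the Tim-4-CD4- libraries (17.4 to 37.9 CPM) from the CD4+ ones (1.79 to 5.66 CPM).

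*Clec4b1* (DCAR, an FcRγ-coupled receptor for mycobacterial glycolipids) peaked in the DN subset. Monocytes held 2.39, 1.84, and 2.36 CPM, and DN macrophages 13.01, 8.03, 12.6, and 13.7 CPM. The level was 6.08, 4.48, 4.35, and 3.65 CPM in SP and 3.05, 3.55, 2.77, and 3.12 CPM in DP macrophages. No library overlapped between populations. The rise from monocytes to DN macrophages was 5.38-fold (log2 fold change 2.43, SE 0.22, edgeR adjusted p = 4.8e-08). *Clec4b1* was then lower by 2.55-fold in the SP (-1.35, SE 0.19, adjusted p = 0.00017) and by 3.78-fold in the DP subset (-1.92, SE 0.19, adjusted p = 1.6e-06) than in the DN subset. The remaining excess of DP macrophages over monocytes was 0.51 (SE 0.21, edgeR adjusted p = 0.036) and was not called without monocyte replicate 2 (0.43, adjusted p = 0.117) or without DP replicate 2 (0.47, adjusted p = 0.0746) or 4 (0.51, adjusted p = 0.0553). The step between the CD4+ subsets did not pass (-0.57, SE 0.19, edgeR adjusted p = 0.14).

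Among the inhibitory receptors, *Clec12a* (MICL, which binds uric acid crystals and restrains myeloid activation) was lower in the gut. Monocytes held 282, 247, and 262 CPM. DN macrophages held 92.1, 62.5, 63.7, and 80.7 CPM, SP macrophages 16.3, 18.3, 15.2, and 17.2 CPM, and DP macrophages 13.6, 6.98, 9.82, and 8.18 CPM. The 4 populations formed 4 steps with no overlap. Against monocytes *Clec12a* was 3.53-, 15.8-, and 27.3-fold lower in the 3 subsets (log2 fold changes -1.82, -3.98, and -4.77, SE 0.18 to 0.20, edgeR adjusted p = 1.5e-07, 1.3e-11, and 1.7e-12). Within the gut it was 4.47-fold lower in the SP than in the DN subset (-2.16, SE 0.17, edgeR adjusted p = 8.8e-07). It was 1.73-fold lower again in the DP subset (-0.79, SE 0.17, adjusted p = 0.014). The last call was lost without SP replicate 2 (-0.74, adjusted p = 0.0513) or DP replicate 4 (-0.72, adjusted p = 0.0547).

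Markers of blood monocytes were read in the same libraries. The summed CPM of 6 markers (*Plac8*, *Ccr2*, *Ly6c2*, *Vcan*, *F13a1*, and *Chil3*) ranged from 8494 to 11021 in monocytes, from 603 to 876 in DN, from 109 to 216 in SP, and from 48.8 to 82.5 in DP macrophages, with a further listed marker left out. Across the macrophage subsets *Ccr2* (660.0, 84.1, and 8.39 CPM in DN, SP, and DP) had the order of *Clec12a* and *Clec4e*. *Plac8* was at 58.8 CPM in DN and 8.52 CPM in SP macrophages, and the libraries of the CD4+ subsets overlapped for it (6.53 to 11.7 CPM). Those of all 3 subsets overlapped for *F13a1* (59.1, 48.7, and 45.6 CPM) and *Vcan* (1.15, 1.48, and 0.982 CPM). Most of the sum in DN macrophages was *Ccr2*, the chemokine receptor of recruited monocytes, at 660.0 ± 106 CPM (SD, n = 4), whereas *Ly6c2* was at 1.72 ± 0.29 CPM there and at 1092 ± 395 CPM in monocytes (SD, n = 3). In DP macrophages *Vcan*, *Ly6c2*, and *Chil3* were under 1 CPM. The part of monocyte-like cells in the *Clec12a* and *Clec4e* of the DN subset was not tested.

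Other cells that can express these lectins were read by the same kind of lists. Of 10 neutrophil markers, 7 were in the table, with sums of 607 to 661 CPM in monocytes and 147 to 201 CPM in macrophages, and *Cxcr2*, *Ltf*, *S100a9*, and *Retnlg* were under 1 CPM on average in every population. Most of the macrophage sums was *Csf3r*, at 161, 177, and 189 CPM on average in DN, SP, and DP. The 9 markers of conventional dendritic cells summed to 138 to 174 CPM in monocytes and 213 to 348 CPM in macrophages. In the DN libraries most of the sum was *Kmo* (94.5 to 142 CPM) and *Dpp4* (78.6 to 114 CPM). The 9 markers did not share 1 order of populations. *Flt3* had that of *Clec12a* and *Clec4e*, at 29.6, 8.65, 0.8285, and 0.572 CPM from monocytes to DP macrophages, with a DN mean raised by 1 library at 17.9 CPM (median 6.17 CPM), and *Btla* also was highest in monocytes. *Itgae* (0.0295 CPM in monocytes and 9.61 CPM in DN macrophages), *Ccr7* (0.0511 and 7.18 CPM), *Xcr1* (0.0118 and 2.83 CPM), and *Clec9a* (3.29 and 29.2 CPM) were lowest in monocytes. *Clec9a* overlaps *Clec1b*, described below, on the same strand, so that reads of that gene may be mixed in. The part of dendritic cells in the levels of the lectins was not tested. Markers of T cells (7), B cells (5), epithelium (7), eosinophils (4 of 6 in the table), and plasmacytoid dendritic cells (6) reached at most 12.9, 72.4, 30.4, 17.9, and 142 CPM in any library. Most of the last of these was *Tcf4*, at 98.4 CPM in monocytes and 115, 119, and 108 CPM in DN, SP, and DP. The 9 macrophage markers summed to at least 26217 CPM in every macrophage library and at most 4371 CPM in monocytes. In the DN libraries the largest part was *H2-Ab1* (12780 to 14863 CPM), a gene of the MHCII used in the sort. *Fcgr1* was at similar levels in all populations (279 CPM in monocytes and 300, 274, and 268 CPM in DN, SP, and DP).

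*Clec4a2* (DCIR, with an inhibitory motif) was in contrast higher in the gut. It stood at 74.2, 69.0, and 64.4 CPM in monocytes and at 163, 139.7, 154, and 169 CPM in DN macrophages. SP macrophages held 149, 140.4, 119.9, and 137 CPM, and DP macrophages 131, 129, 100.1, and 104 CPM. Every macrophage library was above every monocyte library, by 2.26-, 1.97-, and 1.68-fold on average (log2 fold changes 1.18, 0.98, and 0.75, SE 0.11 to 0.12, edgeR adjusted p = 1.5e-07, 1.1e-06, and 2.1e-05). In this fit, which matched no libraries between subsets, only the outermost macrophage subsets were distinguished. DP macrophages were lower than DN macrophages by 1.35-fold (-0.43, SE 0.10, edgeR adjusted p = 0.0065). The steps to and from the SP subset had overlapping libraries (-0.20 and -0.23, SE 0.10 each, adjusted p = 0.29 and 0.31).

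The relatives without the motif were highest in monocytes. The gene *Clec4a3* had 367, 338, and 325 CPM in monocytes, and 150.3, 145, 173, and 155 CPM in DN macrophages. It had 137, 111, 108, and 109 CPM in SP and 87.2, 112, 94.6, and 84.6 CPM in DP macrophages. It was 2.21-, 2.95-, and 3.63-fold lower than in monocytes in the 3 subsets (log2 fold changes -1.14, -1.56, and -1.86, SE 0.11 each, edgeR adjusted p = 1.4e-07, 2.4e-09, and 2.4e-10). Within the gut it was lower in the SP (-0.42, SE 0.10, edgeR adjusted p = 0.016) and the DP (-0.72, SE 0.11, adjusted p = 9.5e-05) than in the DN subset. The former call was lost without DN replicate 3 (-0.37, adjusted p = 0.0631) or without SP replicate 2 (-0.39, adjusted p = 0.0563) or 4 (-0.39, adjusted p = 0.0628). The SP and DP libraries overlapped, and their difference did not pass (-0.30, SE 0.10, edgeR adjusted p = 0.17).

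*Clec4a1* was called against monocytes but not between macrophage subsets. It had 436, 382, and 356 CPM in monocytes, 259, 264, 277, and 309.8 CPM in DN, 312, 262, 218, and 256 CPM in SP, and 260.5, 295, 195, and 202 CPM in DP macrophages. All macrophage libraries lay below all monocyte libraries, by 1.41-, 1.49-, and 1.64-fold on average (edgeR adjusted p = 0.0066, 0.0020, and 0.00033). The first of these calls was lost without monocyte replicate 1 (log2 fold change -0.39, adjusted p = 0.0515). The subsets overlapped, with log2 fold changes of -0.08, -0.14, and -0.22 (SE 0.13 to 0.14, edgeR adjusted p = 0.79, 0.67, and 0.27).

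Of 7 pairs of adjacent genes within the blocks, 4 had the same direction and 3 opposite directions in DP macrophages against monocytes. In the order along the chromosome, the log2 fold changes from monocytes to DP macrophages were -0.71 (*Clec4a1*), -1.86 (*Clec4a3*), 0.51 (*Clec4b1*), 0.75 (*Clec4a2*), 5.10 (*Clec4n*), -1.91 (*Clec4d*), and -4.44 (*Clec4e*) in the first block. They were -4.77 (*Clec12a*) and 1.00 (*Clec7a*) in the second. *Clec4n* and *Clec4d* are 15.1 kb apart and moved in opposite directions, as did *Clec12a* and *Clec7a*, which are 96.3 kb apart.

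**Figure D4:**
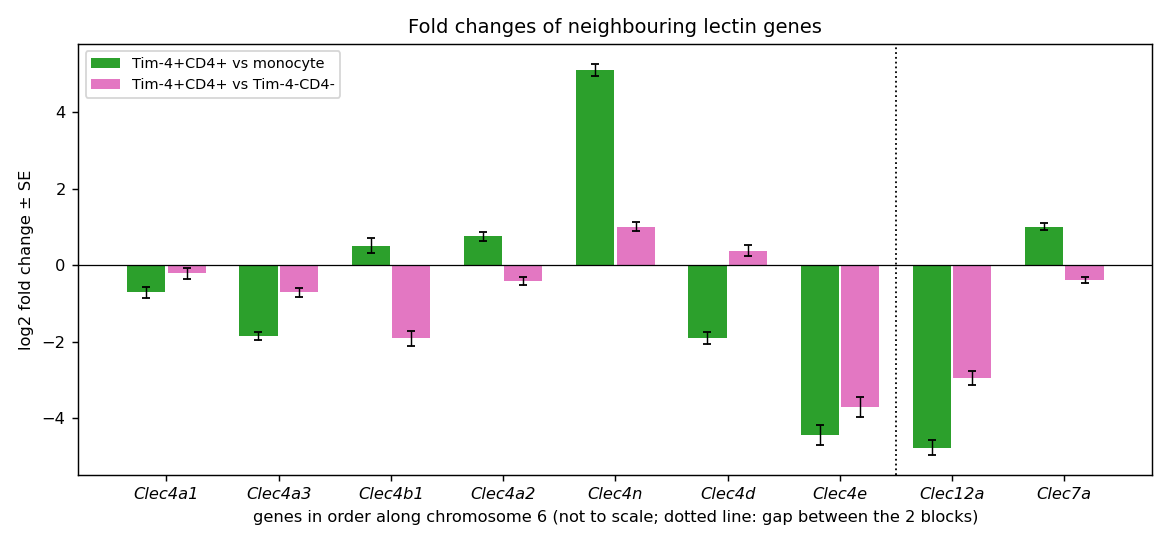
Log2 fold changes (vertical axis, bars from 0, error bars ± SE from edgeR) of the 9 genes in their order along chromosome 6, for Tim-4+CD4+ macrophages against monocytes and against Tim-4-CD4- macrophages. The dotted line marks the gap between the blocks, and distances are not to scale. The tallest bar, *Clec4n* at 5.10, stands beside *Clec4d* at -1.91 and *Clec4e* at -4.44.

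Levels can be compared between genes only per length, so CPM were divided by the exonic length of each gene in kilobases. The 9 genes summed to 775 ± 43.3 CPM per kb in monocytes (SD, n = 3), 937 ± 37.7 in DN, 957 ± 66.2 in SP, and 834 ± 59.2 in DP macrophages (SD, n = 4 each). The make-up of the sum differed between populations. In monocytes *Clec4a3* held 33.4% of the sum, *Clec4a1* 32.3%, *Clec7a* 21.6%, *Clec12a* 6.15%, and *Clec4n* 0.847%. In DN macrophages *Clec7a* held 46.7%, *Clec4a1* 19.0%, *Clec4a3* 12.5%, and *Clec4n* 12.2%. The share of *Clec4n* was 21.2% in SP and 27.5% in DP macrophages, where *Clec7a* held 46.0% and 40.02%, and *Clec4n* ranked second of the 9. *Clec4e* ranked lowest per length in both CD4+ subsets, at 0.856 and 0.453 CPM per kb. With the longest transcript as the length, 35 of the 36 pairs of genes kept their order in DN and in DP macrophages and 36 in the other populations. The exonic length of *Clec12a* fell from 5528 to 3233 bases with that choice.

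**Figure D5:**
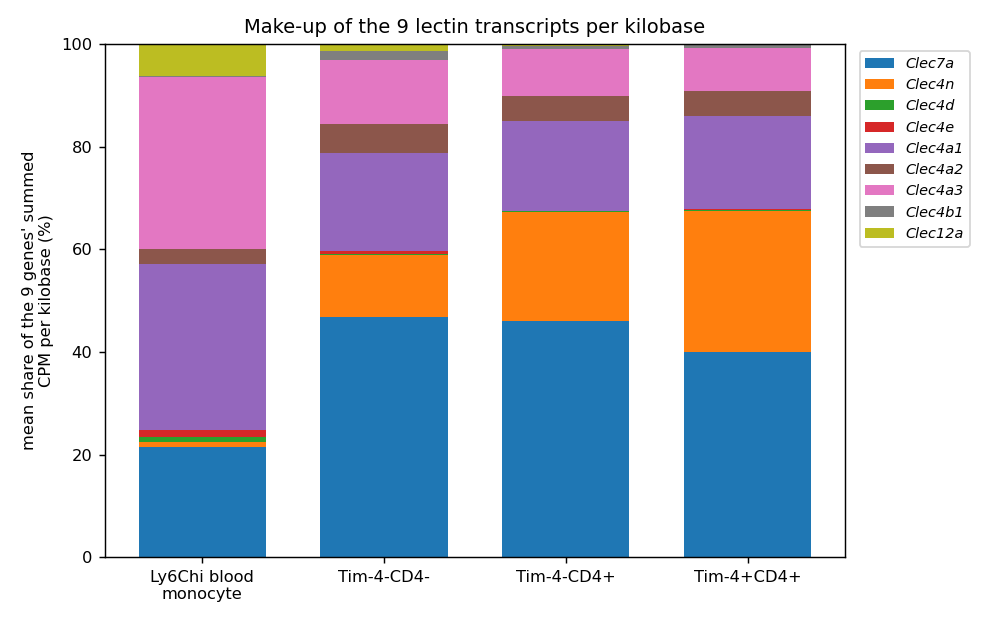
Mean share (vertical axis, percent) of each of the 9 genes in their summed CPM per kilobase of exon, by population (3 monocyte and 4 libraries of each macrophage subset). *Clec4a3* and *Clec4a1* make up most of the monocyte bar (33.4% and 32.3%), and *Clec7a* and *Clec4n* most of the Tim-4+CD4+ bar (40.02% and 27.5%).

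The signaling genes behind the activating receptors were read from lists. *Fcer1g* (FcRγ) stood at 855 ± 124 CPM in monocytes (SD, n = 3) and 804 ± 14.1, 814 ± 11.3, and 885 ± 135 CPM in the DN, SP, and DP subsets (SD, n = 4 each), with no call in any comparison. *Syk* likewise was not called, at 706 CPM in monocytes and 633 to 703 CPM in macrophages. Of 11 adaptors and kinases, 1 was higher and 6, 7, and 7 were lower than in monocytes in the 3 subsets. The shares called were 63.6%, 72.7%, and 72.7%, beside 65.4%, 69.8%, and 70.9% of all genes tested. The higher one was *Src*, from 0.398 CPM in monocytes to 106 to 152 CPM, and the largest fall was that of another kinase of its family, *Fgr*, from 687 to between 88.0 and 116 CPM (log2 fold changes -2.56, -2.77, and -2.96). *Plcg2*, the phospholipase downstream of Syk, was lower as well (-1.74, -1.94, and -1.90). Between adjacent macrophage subsets 0 of the 11 were called by edgeR, and 1 was higher (*Src*, 0.51, adjusted p = 0.048) and 1 lower (*Fgr*, -0.40, adjusted p = 0.030) in DP than in DN macrophages.

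*Card9*, the scaffold that links Syk to NF-κB, was lower in every macrophage subset, from 152 ± 12.8 CPM in monocytes (SD, n = 3) to 48.7 ± 3.48, 45.4 ± 4.33, and 51.8 ± 11.9 CPM (SD, n = 4 each). Its log2 fold changes were -1.64, -1.75, and -1.56 (edgeR adjusted p = 2.4e-08, 9.4e-09, and 3.6e-08). Of the 10 genes of the Card9 complex and NF-κB, 3 were higher and 4 lower than in monocytes in the DN subset, and 1 was higher (*Rel*) and 5 lower in each CD4+ subset. These shares of 70%, 60%, and 60% were near those over all genes in the same comparisons. *Ptpn6*, which encodes SHP-1, fell from 875 ± 78.8 CPM (SD, n = 3) to between 486 and 531 CPM, with log2 fold changes of -0.85, -0.80, and -0.72 (edgeR adjusted p = 1.9e-07, 3.3e-07, and 1.1e-06), and it was not called between macrophage subsets. Of 4 inhibitory phosphatases, 1 was higher and 1, 2, and 2 were lower than in monocytes (50%, 75%, and 75% called, beside 65.4%, 69.8%, and 70.9% of all genes). In DP against DN macrophages 1 was lower (11.9% of all genes). *Ptpn11* (SHP-2) was at 145, 124, 108, and 95.8 CPM from monocytes to DP macrophages, and *Inppl1* at 76.4, 145, 130, and 136 CPM.

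The 15 genes known to be induced through activating lectins and by many other stimuli were all higher in each macrophage subset than in monocytes, as were 37.3%, 39.1%, and 39.5% of all genes tested. Their levels differed widely. *Il1b* was at 3779, 3173, and 2910 CPM in DN, SP, and DP macrophages. *Csf2* (0.068, 0.113, and 0.127 CPM) and *Csf3* (0.527, 0.138, and 0.033 CPM) were near the floor, with no read in monocytes. The part of digestion in the rise over monocytes cannot be told apart from that of the tissue. Between the subsets, 5 of 15 were lower (5.53% of all genes) and 0 higher in the SP than in the DN subset, among them *Tnf* (-0.54, edgeR adjusted p = 0.0023), *Il6* (-1.74, adjusted p = 0.0034), and *Egr3* (-0.98, adjusted p = 0.013). In DP against DN macrophages 8 were lower (11.9% of all genes) and 1, *Il10*, was higher (0.53, edgeR adjusted p = 0.014). *Egr3* was the 1 gene called, and lower, between the CD4+ subsets (-0.94, edgeR adjusted p = 0.038), where 1.34% of all genes were lower.

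Other C-type lectin genes were read as well. Of 9 further lectin genes of chromosome 6 on the list, 8 were tested, and 6, 4, and 4 were higher and 1 was lower than in monocytes in the 3 subsets (87.5%, 62.5%, and 62.5% called). *Clec1b* (CLEC-2, the receptor for podoplanin) rose from 0.772 CPM in monocytes to 62.9 ± 7.54, 154 ± 24.5, and 170 ± 22.5 CPM (SD, n = 4 each), in the same order of populations as *Clec4n*. *Clec1b* overlaps *Clec9a* on the same strand, so that their reads may be mixed. *Olr1* (LOX-1) was the lower gene, at 7.08, 2.64, 0.582, and 0.224 CPM from monocytes to DP macrophages. Of 13 myeloid lectins encoded elsewhere, 10 were tested, with 4, 5, and 4 higher and 1, 4, and 3 lower than in monocytes (50%, 90%, and 70% called). With 8 and 10 genes, and 65.4%, 69.8%, and 70.9% of all genes called, nothing particular to these lectins is read from the counts. *Mrc1*, the mannose receptor, rose from 21.8 CPM to between 1083 and 1185 CPM, with no call between macrophage subsets.

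The factors whose sequences were searched include PU.1 and members of the C/EBP family. *Spi1* (PU.1) was at 695 CPM in monocytes and at 465, 442, and 515 CPM in the 3 subsets, and *Cebpb* was at 502 and then 842, 855, and 957 CPM, with no call between subsets for either. *Cebpd* was called between the DN and SP subsets, where it was lower by 0.41 on the log2 scale (SE 0.12, edgeR adjusted p = 0.046). Transcript levels do not measure the activity of these factors.

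Over the 15 libraries, which share the large difference between blood and gut, the genes whose log2 CPM ran most like *Clec4n* were *Htra1*, *Car2*, and *Cd22* (Pearson r = 0.999 each). Those most like *Clec12a* were *Gng10*, *Lgals1*, and *Rplp0* (0.986 to 0.993), and those most like *Clec4e* were *Glipr1*, *Ass1*, and *Actg1* (0.965 to 0.973). Over the 12 macrophage libraries alone, *Clec4n* ran most like *Cd22*, *Olfml3*, and *Fam234b* (0.992 to 0.996), *Clec7a* most like *Tgfbi* (0.963), and *Clec4e* most like *Fam129b*, *Lgals1*, and *Trib1* (0.976 to 0.981). Among the 9 genes in these 12 libraries, *Clec4e* and *Clec12a* had r = 0.962, *Clec4b1* and *Clec12a* 0.940, *Clec4e* and *Clec4n* -0.972, and *Clec4n* and *Clec12a* -0.965. All of these correlations describe libraries that fall into 3 subsets and are not evidence of shared control.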

How the data were processed

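RNA from sorted cells was made into stranded, poly(A)-selected, paired-end libraries. The deposited table holds raw counts of reads per gene, which the authors made with bcl2fastq 2.17.1.14, Trimmomatic 0.36, STAR, and HTSeq 0.6.1p1 against GRCm38.p4 with GENCODE vM11 genes. The strand setting of the counting is not given in the sources used here. A further 15 columns, the same counts divided by a size factor, were not used. Of 19456 identifiers, 19421 had a symbol. Genes with low counts were removed by filterByExpr (15802 remained), libraries were scaled by TMM, and all 15 libraries were fitted together with edgeR 4.0.16 in R 4.3.3 (quasi-likelihood test, Benjamini-Hochberg adjustment within each of 6 comparisons, threshold 0.05). Standard errors were derived from the test statistic. The model was tested on simulated data. Log2 CPM for correlations used a prior count of 2. Positions came from GENCODE M21 and promoters from RefSeq for GRCm38.p6. Figures were drawn with matplotlib 3.10.9. Alternatives were RLE and upper-quartile scaling, no filter, a 2-fold threshold, a replicate block, the pair of populations alone, DESeq2 1.42.0, leaving out each library, and the longest transcript as length.

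The genes and lists were chosen with earlier results of these data known. All 9 lectin genes are named in every comparison. From each list the first gene and at most 4 called genes of the largest absolute log2 fold change are named. *Syk*, *Il10*, *Il1b*, *Csf2*, *Csf3*, *Ptpn11*, *Inppl1*, and the marker genes of cell types given by name were added after their values were seen. The ratio of *Clec4e* to *Clec4d* and its test were not among the planned results. The 3 genes most alike to a lectin gene were sought among 11789 genes with a mean of at least 1 CPM. A further monocyte marker on the list is not reported here and was left out of the sum.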

Additional observations from a re-analysis of the deposited data

Results flagged for a closer look

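*Clec4a3* in Tim-4-CD4+ macrophages had 1 library far from the others: replicate 1 was at 137 CPM and the nearest library at 111 CPM, a gap of 0.917 of the range of the 4 libraries, above Dixon's 95% critical value. Of 27 groups of libraries examined (9 genes in 3 subsets) this was the 1 past that value, and chance gives about 1 in 20. DN replicate 3 (173 CPM) and DP replicate 2 (112 CPM) had the most *Clec4a3* of their subsets. Both correlated with SP replicate 1 over the genes tested, with subset means removed (r = 0.14 and 0.17). Whether these libraries share a sort was not tested.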

How the results depend on the processing

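The counts of lectin genes called kept within 1.5 times their value in 131 of 138 cases. With a threshold of at least 2-fold as well, the count was 5 for DP macrophages against monocytes, 3 for SP against DN, 0 for DP against SP, and 3 for DP against DN. When 1 library was left out, the counts ranged from 7 to 9, 9 to 9, and 8 to 9 against monocytes (DN, SP, DP), and were 4 to 5, 1 to 3, and 7 to 7 in the comparisons between subsets in the order given in the report. The 1 was reached without SP replicate 2 or 4 or DP replicate 4. All genes called between the CD4+ subsets numbered 539 by edgeR and 904 by DESeq2.

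Of 1188 fold changes of lectin genes under alternatives, 1158 kept direction and side of the threshold, 24 lost their call, 2 gained one (*Clec4d*, given in the report), and 4 changed sign. The 4 were *Clec7a* between the Tim-4- subsets, with values of -0.0484 to 0.0594 when 1 library was left out (-0.00764, -0.0179, -0.00680, and -0.0484 in the 4 cases). No called direction changed with scaling, although the median over all genes against monocytes moved from 0.08, 0.11, and 0.10 with TMM to 0.15, 0.19, and 0.21 with upper-quartile scaling. The level of *Clec4n* in DP macrophages was 335 CPM with upper-quartile scaling, and 35 pairs of genes kept their order per kilobase with the longest transcript in DN and in DP macrophages. The cause was not tested.

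Same-numbered libraries, with subset means removed, correlated at -0.12 to 0.13 by the titles (2 of 12 pairs over 0.1) and at -0.09 to 0.16 by the descriptions (4 of 12). Differently numbered ones reached 0.24 (8 and 6 of 36 over 0.1). Pairs over 0.1 linked DN replicate 2, SP 3, and DP 3 (0.13 to 0.24), and DN 3, SP 1, and DP 2 (0.13 to 0.17). They also linked DN 4, SP 2, and DP 4 (0.13 to 0.16), and DN 1 with SP 4 (0.22). Neither numbering gave all these links. Whether they mark shared sorts was not tested, and no block followed them. Calls and non-calls between subsets, those between the CD4+ subsets included, were therefore not checked with libraries matched by these links. With the replicate block, the counts were 9, 9, 9, 5, 2, and 7 by either numbering, and the gene lost was *Clec4e* between the CD4+ subsets (edgeR adjusted p = 0.0952 by titles and 0.0667 by descriptions).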
